A study of Mus musculus with 12 samples.

Results

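The genes of the CUL2 ubiquitin ligase were followed in 3 lines of mouse embryonic stem cells (ESCs). The set held the scaffold *Cul2*, the RING subunit *Rbx1* and 8 substrate receptors, namely *Vhl*, *Lrr1*, *Fem1b*, *Fem1c*, *Klhdc2*, *Klhdc3*, *Zyg11b* and *Appbp2*. These 10 genes were taken by their symbols from the table of expression values, and all 10 were found among the 47940 genes kept. All 10 also passed the filter on low values, which left 12914 genes to be tested. The rule that picks them names symbols and uses no measured value, although the set was proposed with earlier results of these data known.

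CUL2 is a cullin, an elongated scaffold protein. At one end it holds RBX1, which recruits a ubiquitin-charged E2 enzyme, and at the other end the adaptors ELONGIN B and ELONGIN C hold an exchangeable receptor that picks the protein to be ubiquitinated. The ligase is switched on when NEDD8 is attached to the cullin, and switched off when the COP9 signalosome removes it. The best known receptor is VHL, the von Hippel-Lindau tumour suppressor, which in the presence of oxygen recruits the hydroxylated alpha subunits of the hypoxia-inducible factors (HIF). FEM1B, FEM1C, KLHDC2, KLHDC3, ZYG11B and APPBP2 read short degrons at the ends of proteins, and LRR1 directs removal of the replicative helicase from chromatin. PRAMEL7 is itself a receptor of CUL2.

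The parental line was E14, a mouse ESC line, grown in 15% serum with leukemia inhibitory factor (LIF). In ESC + H/F-PRAMEL7WT and ESC + H/F-PRAMEL7ΔN, a *Pramel7* sequence with HA and FLAG tags driven by the CAG promoter had been placed with Cas9 in *Rosa26*, and clones had been grown from single cells. The ΔN protein lacks, per the labels, 50 residues at the N-terminus, the part with the boxes for CUL2 and ELONGIN C, whereas the text of the study gives a smaller deletion. Polyadenylated RNA of 2 dishes per line was sequenced, so that p-values measure the spread between dishes of a line, and an effect of the transgene cannot be told apart from a difference between clones.

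Each library held between 18246969 and 19844632 reads that fell on genes. Expression was given as CPM, counts of a gene in the authors' scaling, divided by one constant so that all genes sum to 1e6 on average over the libraries. No new scaling between libraries was made. CPM was tested as log2(CPM + 1) with limma, so that a log2 fold change is on that scale and understates changes of low genes. A gene was called when its p-value, adjusted by Benjamini-Hochberg over all 12914 genes, was under 0.05. *Pramel7* had 0.258 and 0.217 CPM in the parental line, 51.2 and 46.2 in ESC + H/F-PRAMEL7WT and 397.7 and 430.9 in ESC + H/F-PRAMEL7ΔN. The line with the receptor that lacks its CUL2 box thus held the more abundant transcript.

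The cells were ESCs by their markers, and the levels of some markers differed between the lines. Counts of markers called stand beside the shares of all tested genes. In ESC + H/F-PRAMEL7WT 16.3% of these were called lower and 8.71% higher, and in ESC + H/F-PRAMEL7ΔN 13.6% and 6.25%. All 8 ESC markers were tested, with a summed level between 4903 and 6247 CPM in the 6 libraries. In ESC + H/F-PRAMEL7WT 4 of them were called lower, with the largest fall for *Klf4* (-0.66), and in ESC + H/F-PRAMEL7ΔN 1 was called, *Dppa5a* (0.38). The 6 markers of primed epiblast summed to 170.4 to 199.2 CPM in the parental line, 317.7 to 325.6 in ESC + H/F-PRAMEL7WT and 133.6 to 144.5 in ESC + H/F-PRAMEL7ΔN. Most of each sum was *Dnmt3b*, at 151.7 and 123.7, 259.6 and 250.4, and 117.3 and 109.0 CPM in this order of lines. *Fgf5* had 0 reads in all libraries of both derived lines, and *T* had 0 in those of ESC + H/F-PRAMEL7ΔN. Of the 3 primed markers tested, 2 were called higher in ESC + H/F-PRAMEL7WT, led by *Dnmt3b* (0.89), and 1 was called lower in ESC + H/F-PRAMEL7ΔN, *Otx2* (-0.93). Among the 7 fibroblast markers *Dcn* and *Lum* had 0 reads in all libraries, the sum was 52.1 to 71.4, 25.1 to 26.7 and 46.8 to 53.7 CPM in the same order, and the 3 tested were all called lower in ESC + H/F-PRAMEL7WT, *Pdgfrb* the most (-1.43), with no call in ESC + H/F-PRAMEL7ΔN. The 6 markers of trophectoderm summed to 92.3 to 133.3, 97.5 to 100.9 and 89.8 to 94.9 CPM. Of the 4 tested, *Krt18* was called lower in ESC + H/F-PRAMEL7WT (-0.49), whereas 3 were called higher in ESC + H/F-PRAMEL7ΔN, *Eomes* the most (0.96), and *Tfap2c* lower (-1.26). The 6 of primitive endoderm summed to at most 5.57 CPM in any library, and of the 3 tested *Gata4* was called higher (0.69 and 0.78) and *Pdgfra* lower (-0.60 and -0.66) in both derived lines. In bulk RNA, fewer cells of a type and less RNA per cell cannot be told apart, and the part of these markers in the results was not tested.

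Levels of different genes were compared per kilobase of exon. Exon length was the union of all annotated exons of a gene. Levels of genes whose main transcript is shorter than this are understated, by unlike amounts, and the order is approximate. In parental ESCs, *Klhdc3* was the most abundant of the 10, at 81.4 ± 7.50 CPM per kb (SD, n = 2 libraries), and exceeded 95.2% of the tested genes. *Fem1b* followed at 35.8 ± 2.81 (SD, n = 2). *Appbp2* at 25.3 ± 4.20, *Cul2* at 23.6 ± 5.27 and *Rbx1* at 21.8 ± 3.45 CPM per kb (SD, n = 2 each) came next, and the libraries of neighbours in this order overlapped, so that scaffold, RING subunit and this receptor could not be ranked. *Vhl* had 11.3 ± 1.76 CPM per kb (SD, n = 2). The lowest 4 were *Fem1c* at 8.37 ± 1.68, *Klhdc2* at 6.96 ± 0.601, *Zyg11b* at 6.53 ± 0.448 and *Lrr1* at 5.27 ± 2.13 (SD, n = 2 each), again with overlapping libraries between neighbours. *Klhdc3*, *Fem1b* and *Lrr1* thus marked a range of receptor transcripts around a scaffold of intermediate abundance. The order was nearly the same in the derived lines. In both, *Appbp2* stood below *Cul2* and *Rbx1*, at 17.1 ± 0.482 CPM per kb in ESC + H/F-PRAMEL7WT and 19.9 ± 0.819 in ESC + H/F-PRAMEL7ΔN (SD, n = 2 each). *Zyg11b* was the lowest in ESC + H/F-PRAMEL7ΔN, at 5.13 ± 0.075 (SD, n = 2). The adaptor *Elob*, at 133.2 ± 26.7 CPM per kb in parental ESCs (SD, n = 2), was above all 10, and *Eloc*, at 38.1 ± 8.75 (SD, n = 2), was above *Cul2*.

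**Figure D1:**
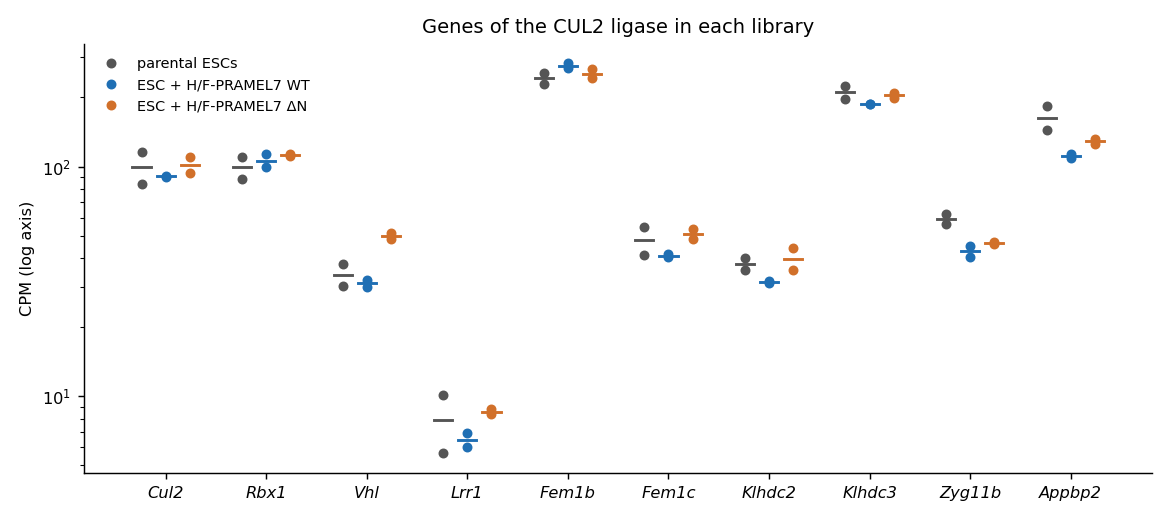
CPM of the 10 genes on a log axis, with 1 point per library, a bar at the mean of the 2 libraries and one colour per line. *Vhl* stands higher in ESC + H/F-PRAMEL7ΔN, *Zyg11b* and *Appbp2* stand lower in both derived lines, and for *Lrr1* and *Cul2* the 2 parental libraries lie as far apart as the lines.

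*Cul2* (ENSMUSG00000024231, chromosome 18) was not called in any comparison. It had 115.3 and 83.8 CPM in the parental line, 90.5 and 90.7 in ESC + H/F-PRAMEL7WT, and 93.6 and 109.8 in ESC + H/F-PRAMEL7ΔN. The parental libraries enclosed all 4 others. The log2 fold change against parental ESCs was -0.12 (95% confidence interval -0.44 to 0.20) for ESC + H/F-PRAMEL7WT and 0.04 (-0.28 to 0.36) for ESC + H/F-PRAMEL7ΔN, with adjusted p = 0.577 and 0.865 from limma. Without the second parental library *Cul2* was called lower in ESC + H/F-PRAMEL7WT (-0.34, adjusted p = 0.0167), and without the first its value was 0.11, so that the parental dishes decided the sign. *Rbx1* (ENSMUSG00000022400, GRCm38 chromosome 15 from 81466296 to 81476369) had 110.3 and 88.1 CPM in the parental line, 99.4 and 113.3 in ESC + H/F-PRAMEL7WT, and 111.5 and 114.0 in ESC + H/F-PRAMEL7ΔN. Its log2 fold change was 0.11 (-0.16 to 0.37) and 0.19 (-0.07 to 0.46), and neither was called. Without the first parental library it was called higher in both derived lines, at 0.27 and 0.35. A processed copy, *Rbx1-ps*, held 6 to 14 reads per library against at least 1623 for *Rbx1*.

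*Vhl* was the single member called between the derived lines, and the single one called higher in any comparison. It lies on chromosome 6 from 113623959 to 113631633 (GRCm38, plus strand, ENSMUSG00000033933). Parental ESCs had 37.6 and 30.2 CPM, ESC + H/F-PRAMEL7WT had 32.1 and 29.8, and ESC + H/F-PRAMEL7ΔN had 48.4 and 51.5. Both ΔN libraries were above the 4 others, whereas the WT libraries overlapped with the parental ones. In ESC + H/F-PRAMEL7ΔN *Vhl* rose by 46.8% over parental ESCs (log2 fold change 0.55, standard error 0.12, limma adjusted p = 0.0132). The log2 fold change in ESC + H/F-PRAMEL7WT was -0.12 (-0.40 to 0.16, adjusted p = 0.513). The direct contrast of ESC + H/F-PRAMEL7WT with ESC + H/F-PRAMEL7ΔN gave -0.67 (-0.95 to -0.39, adjusted p = 0.00547). Between 542 and 975 reads per library lay behind these values. With a single ΔN library the call against parental ESCs was lost at nearly the same size, 0.60 without the first and 0.51 without the second. Over all tested genes, most calls of a derived line were likewise lost when one of its libraries was left out. The contrast of the derived lines lost its call without the second WT library (-0.62, adjusted p = 0.0746) or the second ΔN library (-0.63, adjusted p = 0.0701).

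*Zyg11b*, whose product recognizes proteins that begin with glycine, was lower in both derived lines. This gene lies on the minus strand of chromosome 4 from 108229724 to 108301096 (ENSMUSG00000034636). It had 62.0 and 56.2 CPM in the parental line, 45.3 and 40.4 in ESC + H/F-PRAMEL7WT, and 46.0 and 46.9 in ESC + H/F-PRAMEL7ΔN, and both parental libraries were above the 4 others. It fell by 27.1% in ESC + H/F-PRAMEL7WT (log2 fold change -0.46, standard error 0.10, adjusted p = 0.0133) and fell by 21.0% in ESC + H/F-PRAMEL7ΔN (-0.34, standard error 0.10, adjusted p = 0.0466). Between the derived lines the value was -0.12 (-0.35 to 0.12, adjusted p = 0.456). The call in ESC + H/F-PRAMEL7ΔN lay at the threshold and was lost in 11 of 16 alternatives, among them median-ratio scaling (-0.27, adjusted p = 0.112) and leaving out the first parental library (-0.27, adjusted p = 0.0700) or any of the derived ones (-0.35 to -0.32, adjusted p from 0.0906 to 0.210). The call in ESC + H/F-PRAMEL7WT was lost without the first (-0.54, adjusted p = 0.0626) or the second WT library (-0.37, adjusted p = 0.141).

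*Appbp2*, a receptor for certain C-terminal degrons, had the largest fall of the 10 in ESC + H/F-PRAMEL7WT. It lies on the minus strand of chromosome 11 from 85187262 to 85235130 (ENSMUSG00000018481). Parental ESCs had 182.7 and 144.4 CPM, ESC + H/F-PRAMEL7WT had 113.0 and 108.6, and ESC + H/F-PRAMEL7ΔN had 125.0 and 132.5. Again both parental libraries were above the 4 others. *Appbp2* fell by 31.6% in ESC + H/F-PRAMEL7WT (log2 fold change -0.55, standard error 0.11, adjusted p = 0.00908). The value in ESC + H/F-PRAMEL7ΔN was -0.33 (-0.59 to -0.08), which did not pass after adjustment (adjusted p = 0.0676), and without the second parental library it passed at -0.50 (adjusted p = 0.000729). The call in ESC + H/F-PRAMEL7WT was lost without the first (-0.58, adjusted p = 0.0688) or the second WT library (-0.52, adjusted p = 0.0877). The antisense gene *Appbp2os* overlaps 5.51% of its exon bases and held 2 to 14 reads per library, against at least 1972 for *Appbp2*. The library kit does not mark the strand.

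The bases upstream of these 3 genes are given because theirs were the transcripts that differed between lines. They come from RefSeq promoter sequences of GRCm38.p6, read 5′ to 3′ on the strand of the gene and ended before the annotated start of the gene. In capitals are all matches, on either strand, to GGGCGG, which is the GC box, to the box with the letters CCAAT, to the core of ETS sites with the letters CCGGAA, to the core of HIF sites with the letters ACGTG, to the cyclic AMP response element with the letters TGACGTCA, and to the box with the letters TATAAA. The stretches are chr6:113623744-113623958 for *Vhl*, chr4:108301097-108301340 for *Zyg11b* and chr11:85235131-85235370 for *Appbp2*.
Vhl: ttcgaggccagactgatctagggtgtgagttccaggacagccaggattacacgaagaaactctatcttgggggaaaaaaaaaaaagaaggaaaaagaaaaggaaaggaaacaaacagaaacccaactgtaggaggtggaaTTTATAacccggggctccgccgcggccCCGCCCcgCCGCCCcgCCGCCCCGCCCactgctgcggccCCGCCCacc
Zyg11b: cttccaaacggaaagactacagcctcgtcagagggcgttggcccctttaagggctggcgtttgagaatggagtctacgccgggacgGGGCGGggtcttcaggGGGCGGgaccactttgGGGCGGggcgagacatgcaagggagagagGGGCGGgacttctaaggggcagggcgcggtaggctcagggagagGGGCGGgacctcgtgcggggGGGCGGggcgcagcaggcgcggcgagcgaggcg
Appbp2: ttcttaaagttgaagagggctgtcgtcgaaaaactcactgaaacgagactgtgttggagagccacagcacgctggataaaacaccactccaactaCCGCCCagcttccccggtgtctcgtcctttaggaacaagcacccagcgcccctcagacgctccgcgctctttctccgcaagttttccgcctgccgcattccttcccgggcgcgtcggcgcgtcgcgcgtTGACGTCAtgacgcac

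The *Vhl* stretch held 5 GC boxes on the minus strand, of which a pair shares 1 base, and TATAAA on the minus strand. The *Zyg11b* stretch held 6 GC boxes, all on the plus strand, and no other of the motifs. The *Appbp2* stretch held 1 GC box and 1 cyclic AMP response element. Over the whole 250 bases before the RefSeq start, at least 1 GC box was present in 6 of the 8 members with a promoter in the table and in 32.7% of 32851 promoters of that length. At least 6 were present in 0.886% of the promoters, and *Zyg11b* with 6 and *Vhl* with 7 were among these. The promoters compared were not matched to the members by expression or by content of G and C, which was 58.4% to 73.6% in the 8 members. The cyclic AMP response element was present in 1.55% of promoters and among the 8 members in *Appbp2* alone, and TATAAA in 12.4% and in *Vhl* alone. ACGTG was found in 16.6% of promoters and in 2 of 8 members, CCGGAA in 12.0% and in 3 of 8, and CCAAT in 33.8% and in 1 of 8. These matches are a description of letters, and no binding was measured.

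The other 5 receptors were not called in any comparison. *Fem1b* (chromosome 9 from 62791821 to 62811934) had 256.1 and 229.1 CPM in the parental line, 281.3 and 269.5 in ESC + H/F-PRAMEL7WT, and 243.5 and 265.0 in ESC + H/F-PRAMEL7ΔN. It was the one receptor above parental ESCs in both WT libraries, at a log2 fold change of 0.18 (-0.02 to 0.39, adjusted p = 0.159). Its paralogue *Fem1c* (chromosome 18) had 54.7 and 41.1, 41.5 and 40.5, and 48.5 and 53.5 CPM in the same order of lines. *Klhdc2* (chromosome 12 from 69296681 to 69310687) had 40.1 and 35.5, 31.2 and 31.9, and 35.5 and 44.0 CPM. For both genes the WT libraries were the lowest or overlapped with the lowest parental one, and the contrast of ESC + H/F-PRAMEL7WT with ESC + H/F-PRAMEL7ΔN was -0.31 for *Fem1c* (-0.61 to -0.01, adjusted p = 0.135) and -0.32 for *Klhdc2* (-0.60 to -0.03, adjusted p = 0.105). When the parental libraries were left out of the fit, both passed, with adjusted p = 0.0131 and 0.0268, as did *Appbp2* (-0.21, adjusted p = 0.0345). In that fit the parental libraries, whose spread was the largest, no longer entered the estimate of error. That fit called 4647 of the 12914 tested genes between the derived lines, against 2628 in the main fit. With 1 parental library left out, the other adds nothing to the estimate of error. Such a fit repeats the one without parental libraries, with the same values for these 3 genes, and is no further support.

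*Klhdc3* (chromosome 17 from 46674550 to 46680914) had 197.2 and 224.7 CPM in the parental line, 188.0 and 187.6 in ESC + H/F-PRAMEL7WT, and 210.1 and 198.6 in ESC + H/F-PRAMEL7ΔN. Its WT libraries were nearly equal and below all others, at a log2 fold change of -0.16 against parental ESCs (-0.37 to 0.04, adjusted p = 0.206). *Lrr1* (chromosome 12 from 69168814 to 69179009) had 10.2 and 5.64, 6.94 and 6.0, and 8.38 and 8.76 CPM, and with 104 to 197 reads per library it was the least deeply covered member. Its parental libraries differed 1.80-fold, and its interval in ESC + H/F-PRAMEL7WT, from -0.71 to 0.29, was the widest of the 10. Without the first parental library, *Lrr1* and *Fem1c* were called higher in ESC + H/F-PRAMEL7ΔN (0.53 and 0.30), *Fem1b* higher in ESC + H/F-PRAMEL7WT (0.26) and *Klhdc3* lower there (-0.26). Without the second, *Lrr1* and *Fem1c* were called lower in ESC + H/F-PRAMEL7WT (-0.58 and -0.41). *Mea1* and *Nemf*, on the other strand, overlap 10.6% of the exon bases of *Klhdc3* and 3.05% of those of *Klhdc2*, and had 2443 to 2948 and 681 to 1133 reads per library, so that part of the reads of both receptors could belong to them.

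Counted over the set, 2 of 10 members were called in ESC + H/F-PRAMEL7WT against parental ESCs, both lower, where 25% of all tested genes were called, 8.71% higher and 16.3% lower. In ESC + H/F-PRAMEL7ΔN also 2 were called, 1 higher and 1 lower, where 19.9% of all genes were, 6.25% higher and 13.6% lower. In the contrast of the derived lines 1 member was called, lower in ESC + H/F-PRAMEL7WT, against 20.4% of all genes, 10.9% higher and 9.44% lower. These shares of 2, 2 and 1 in 10 lay near the background or below it. With median-ratio scaling the calls over all genes in ESC + H/F-PRAMEL7WT shifted from 1125 higher and 2109 lower to 1673 and 1495, and in ESC + H/F-PRAMEL7ΔN from 807 and 1759 to 1122 and 1368, whereas *Appbp2* and *Zyg11b* in the former and *Vhl* in the latter were called under both. The median log2 fold change of the members was -0.19 in ESC + H/F-PRAMEL7WT, beside -0.08 over all genes, and 0.07 in ESC + H/F-PRAMEL7ΔN, beside -0.06. In the contrast of the derived lines it was -0.19 beside -0.02, with 9 of 10 members lower in ESC + H/F-PRAMEL7WT and *Fem1b* higher. In that contrast the libraries of 9 of 10 members did not overlap, as was so for 68.8% of all genes, and *Rbx1* was the exception. Against parental ESCs 5 members did not overlap in ESC + H/F-PRAMEL7WT, where 64.2% of all genes did not, and 4 in ESC + H/F-PRAMEL7ΔN, where 57% did not. The comparisons with parental ESCs share the parental libraries, in which 9 of 10 members were higher in the first than in the second. The median absolute log2 ratio between the libraries of a line, over genes of at least 10 CPM, was 0.17 in the parental line, 0.08 in ESC + H/F-PRAMEL7WT and 0.11 in ESC + H/F-PRAMEL7ΔN.

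Many genes on the chromosomes of *Vhl* and *Appbp2* were shifted together. *Vhl* begins 546.6 kb from the nearer edge of *Gt(ROSA)26Sor*, the gene at the site where the transgenes were inserted. The 602 other tested genes of its chromosome had a median log2 fold change of -0.26 in ESC + H/F-PRAMEL7WT and 0.25 in ESC + H/F-PRAMEL7ΔN. Within 5 Mb of *Vhl*, 62 tested genes had medians of -0.10 and 0.29, and of -0.43 in the contrast of the derived lines. *Vhl*, at 0.55 in ESC + H/F-PRAMEL7ΔN, exceeded 83.9% of these neighbours. *Brk1*, 19.2 kb before the start of *Vhl*, had 116.8 and 90.0 CPM in the parental line, 104.5 and 109.7 in ESC + H/F-PRAMEL7WT, and 155.2 and 153.7 in ESC + H/F-PRAMEL7ΔN, a pattern close to that of *Vhl*, at a log2 fold change of 0.59 in ESC + H/F-PRAMEL7ΔN (adjusted p = 0.00837). *Fancd2*, of the DNA crosslink repair pathway, was called at -0.36 in ESC + H/F-PRAMEL7WT and 0.34 in ESC + H/F-PRAMEL7ΔN, and *Tatdn2* at 0.37 in ESC + H/F-PRAMEL7ΔN. *Fancd2os* and *Irak2* were not called in either line, at 0.75 and 0.28 in ESC + H/F-PRAMEL7ΔN, and the low transcript *Gm26982*, at 1.41 to 4.68 CPM, was called higher in both, at 0.89 and 0.74. *Gt(ROSA)26Sor* itself had 2.32 and 0.868 CPM in the parental line, 1.16 and 1.32 in ESC + H/F-PRAMEL7WT, and 0.201 and 0.422 in ESC + H/F-PRAMEL7ΔN, where it was called lower (-0.93, adjusted p = 0.0349).

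**Figure D2:**
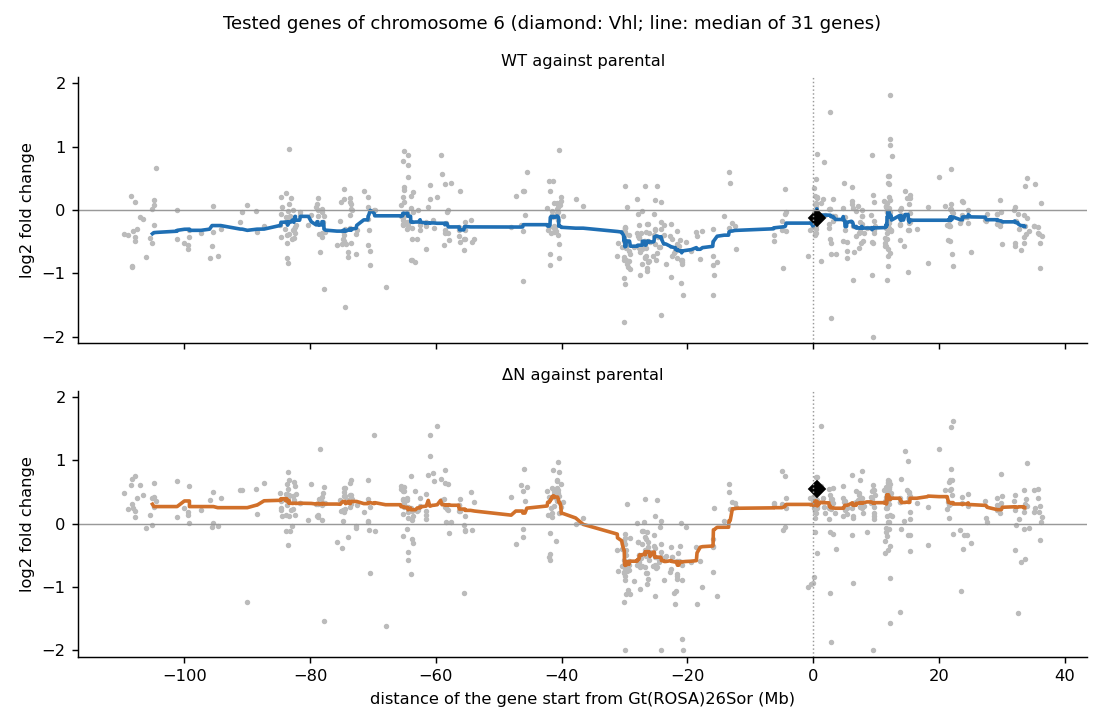
Log2 fold change against parental ESCs of the tested genes of chromosome 6 by the distance of their start from *Gt(ROSA)26Sor* in Mb, with ESC + H/F-PRAMEL7WT above and ESC + H/F-PRAMEL7ΔN below. The coloured line is the running median of 31 genes, the diamond is *Vhl*, and values past 2 are drawn at the edge. The median lies below 0 along most of the chromosome above and over 0 below, except in one stretch that is below 0 in both.

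The shift ran along nearly all of chromosome 6. Outside the stretch from 80 to 100 Mb, 391 of 480 genes were above 0 in ESC + H/F-PRAMEL7ΔN, with a median of 0.32, and 337 were below 0 in ESC + H/F-PRAMEL7WT, with a median of -0.19. Inside that stretch the medians of 123 genes were -0.54 in ESC + H/F-PRAMEL7WT and -0.56 in ESC + H/F-PRAMEL7ΔN. *Vhl* lies outside it. On chromosome 11, which holds *Appbp2*, 1101 other genes had medians of -0.36 and -0.33 in the 2 derived lines, and the 78 genes within 5 Mb of *Appbp2* had medians of -0.50 and -0.35, beside -0.55 and -0.33 for *Appbp2* itself. In an alternative chosen after seeing the data, chromosomes were centred. For each gene the deviation from its own mean over the 6 libraries was taken. The median deviation of each chromosome was then set to 0 in each library, which need not remove the whole median fold change of the chromosome. After this *Vhl* was no longer called in ESC + H/F-PRAMEL7ΔN (0.37, limma adjusted p = 0.0668) or between the derived lines (-0.26, adjusted p = 0.167). *Appbp2* was no longer called in ESC + H/F-PRAMEL7WT (-0.19, adjusted p = 0.290). *Zyg11b*, whose 51 neighbours had medians of -0.11 and -0.07, was still called in ESC + H/F-PRAMEL7WT at -0.42. The part of these chromosome-wide shifts in the values of *Vhl* and *Appbp2* was not tested further, and a change of one gene cannot be told apart from a change of its chromosome in these clones. For the other 7 members the medians within 5 Mb ranged from -0.21 to 0.10 in ESC + H/F-PRAMEL7WT and from -0.19 to -0.05 in ESC + H/F-PRAMEL7ΔN.

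**Figure D3:**
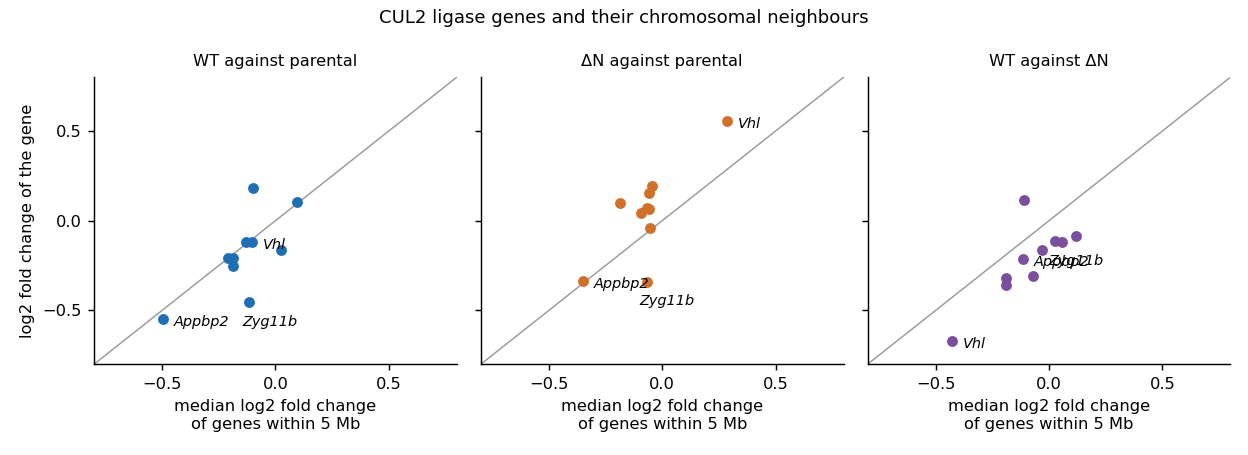
Log2 fold change of each of the 10 genes against the median log2 fold change of the other tested genes that start within 5 Mb of it, for the 3 comparisons, with the line of equality. *Appbp2* lies near the line against parental ESCs, *Vhl* lies to the right with its neighbours in ESC + H/F-PRAMEL7ΔN and to the left with them between the derived lines, and *Zyg11b* lies below the line against parental ESCs.

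The genes that work with CUL2 moved in single members. Counts in the lists of partners stand beside 25% of all tested genes called in ESC + H/F-PRAMEL7WT and 19.9% in ESC + H/F-PRAMEL7ΔN. The list of adaptors and E2 or E3 partners held 9 tested genes, of which 1 was called in each line. *Ube2g1*, an E2 enzyme of chromosome 11, was called in ESC + H/F-PRAMEL7WT at -0.58, with -0.22 and no call (adjusted p = 0.324) after centring of chromosomes, and *Cdc34*, the E2 enzyme that extends ubiquitin chains, in ESC + H/F-PRAMEL7ΔN at -0.32. No adaptor was called, and the median of the list was 0.04 and 0.09 in the 2 lines. Of 10 genes for the attachment of NEDD8, 3 were called in ESC + H/F-PRAMEL7WT, a share near that of all genes. *Uba3*, the catalytic subunit of the NEDD8 activating enzyme, had 55.3 and 64.3 CPM in the parental line, 35.2 and 35.8 in ESC + H/F-PRAMEL7WT, and 44.2 and 47.7 in ESC + H/F-PRAMEL7ΔN, with log2 fold changes of -0.73 (adjusted p = 0.00237) and -0.37 (adjusted p = 0.0391). *Uba3* lies inside the stretch of chromosome 6 that was lower in both lines, where the medians were -0.54 and -0.56. *Ube2m*, the E2 enzyme that charges cullins with NEDD8, had 88.9 and 84.8, 124.8 and 118.8, and 103.5 and 93.1 CPM in the same order of lines, and rose in ESC + H/F-PRAMEL7WT at 0.48 (adjusted p = 0.00647). Genes of the NEDD8 pathway thus moved in both directions, and *Dcun1d4* was the third gene called, at -0.57. Only *Uba3* was called in ESC + H/F-PRAMEL7ΔN.

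Of 13 genes of the COP9 signalosome, CAND proteins and the NEDD8 protease, *Senp8* was called in ESC + H/F-PRAMEL7WT at -0.67, and in ESC + H/F-PRAMEL7ΔN *Cops7a* was called at 0.64 and *Gps1* at -0.58. *Senp8*, which processes NEDD8, had a low level of 4.57 to 9.33 CPM. *Cops7a* lies on chromosome 6 and *Gps1* on chromosome 11, and once chromosomes were centred *Cops7a* was still called at 0.46 and *Gps1* was not, at -0.24. Centring treated chromosome 6 as a whole, with its median of 0.25 in ESC + H/F-PRAMEL7ΔN. *Cops7a* lies outside the stretch from 80 to 100 Mb, and the genes outside it had a median of 0.32. The part of these surroundings in the value of *Cops7a* was not tested. Among 8 other cullins and RBX2, *Cul5* was called in ESC + H/F-PRAMEL7WT at -0.35 and *Cul1*, also of chromosome 6, in ESC + H/F-PRAMEL7ΔN at 0.60, with 0.42 and no call after centring. Among the 5 further receptors of CUL2, *Zyg11a* fell in ESC + H/F-PRAMEL7WT at -0.53 (adjusted p = 0.0166), from 24.1 and 23.8 CPM to 18.0 and 14.8, and had 20.1 and 19.7 CPM in ESC + H/F-PRAMEL7ΔN (-0.26, adjusted p = 0.201). On the chromosome 11.7 kb lie between *Zyg11a* and *Zyg11b*, so that these paralogues are also neighbours. *Klhdc10* was called in ESC + H/F-PRAMEL7WT too, at -0.31, on chromosome 6 with its median of -0.26, and *Fem1a* and *Zer1* were not called in either line. Of 9 known substrates and inhibitors of these receptors, *Fnip1*, a substrate of FEM1B that lies on chromosome 11, was called at -0.93 in ESC + H/F-PRAMEL7WT and -0.61 in ESC + H/F-PRAMEL7ΔN, with -0.57 and -0.27 after centring, the latter without a call. *Mcm7*, the helicase subunit that LRR1 targets, was called at 0.28 and *Bex2* at -0.41, both in ESC + H/F-PRAMEL7WT. The medians in ESC + H/F-PRAMEL7WT, beside -0.08 over all genes, were -0.14 for the NEDD8 genes, 0.03 for the signalosome list, -0.09 for the cullins, -0.10 for the further receptors and -0.17 for the substrates and inhibitors. For ESC + H/F-PRAMEL7ΔN, beside -0.06, the signalosome list had 0.04, the cullins -0.03, the further receptors, which include *Pramel7*, 0.24 and the substrates and inhibitors 0.02, and the NEDD8 genes had -0.0032.

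Targets of HIF were examined because VHL is the receptor for its alpha subunits. Of 16 listed target genes 14 were tested. In ESC + H/F-PRAMEL7WT 5 were called, all lower, namely *Bnip3*, *Car12*, *Hk2*, *Ndrg1* and *Pfkfb3*, where 16.3% of all genes were called lower, and 13 of 14 had a negative value, with a median of -0.34 beside -0.08 over all genes. In ESC + H/F-PRAMEL7ΔN 3 were called, all lower, namely *Car12*, *Hk2* and *Mxi1*, where 13.6% of all genes were called lower, and 10 of 14 were negative, with a median of -0.27 beside -0.06. Both comparisons share the parental libraries. All of the 14 but *Ndrg1* and *Kdm3a* were higher in the second parental library than in the first, as *Bnip3* at 13.7 and 22.6 CPM. The part of this difference between parental dishes in both medians was not tested. *Car12*, a carbonic anhydrase, had 8.25 and 10.4 CPM in the parental line, 3.70 and 2.75 in ESC + H/F-PRAMEL7WT, and 2.21 and 2.90 in ESC + H/F-PRAMEL7ΔN, and fell by 1.29 and 1.53 on the log2 scale (adjusted p = 0.00243 and 0.000856). *Hk2*, the hexokinase of proliferating cells, fell from 467.2 and 543.6 CPM to 329.7 and 344.5 in ESC + H/F-PRAMEL7WT and to 390.4 and 373.8 in ESC + H/F-PRAMEL7ΔN, at -0.58 and -0.40 on the log2 scale. *Hk2* lies in the same stretch of chromosome 6 as *Uba3*, with its medians of -0.54 and -0.56. *Vegfa* and *Slc2a1*, the angiogenic factor and the glucose transporter, had log2 fold changes of 0.01 and -0.02 in ESC + H/F-PRAMEL7WT and 0.21 and 0.16 in ESC + H/F-PRAMEL7ΔN, and were not called. In the contrast of the derived lines 1 of 14 was called, *Pdk1*, at -0.30, where 20.4% of all genes were called.

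The list of HIF subunits and hydroxylases, some of which mark HIF for VHL, held 8 tested genes. In ESC + H/F-PRAMEL7WT 1 was called, beside 25% of all genes, and in ESC + H/F-PRAMEL7ΔN 2 were, beside 19.9%. *Egln2* was called in ESC + H/F-PRAMEL7WT at 0.40, from 44.7 and 52.8 CPM to 63.6 and 65.4. *Egln3* was called in ESC + H/F-PRAMEL7ΔN at 0.64, from 20.2 and 21.5 CPM to 34.7 and 31.6, and *Epas1*, which encodes HIF2 alpha, at 0.52, from 65.4 and 67.0 CPM to 94.9 and 95.7. Each of the 3 also differed directly between the derived lines, at 0.52, -0.55 and -0.38, where 20.4% of all genes were called. That contrast reuses the libraries in which each of the 3 was called against parental ESCs, so that it is no separate result. *Hif1a* and *Egln1* were not called in any comparison. Among the called genes with the largest rise or fall of each list, there were 32 calls against parental ESCs. Cell type markers were included and *Pramel7* was left out. Of these calls 9 held in every alternative. The others were lost when one library of the derived line concerned was left out. Most calls over all genes were lost there too, as 1 library remained in that line.

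**Figure D4:**
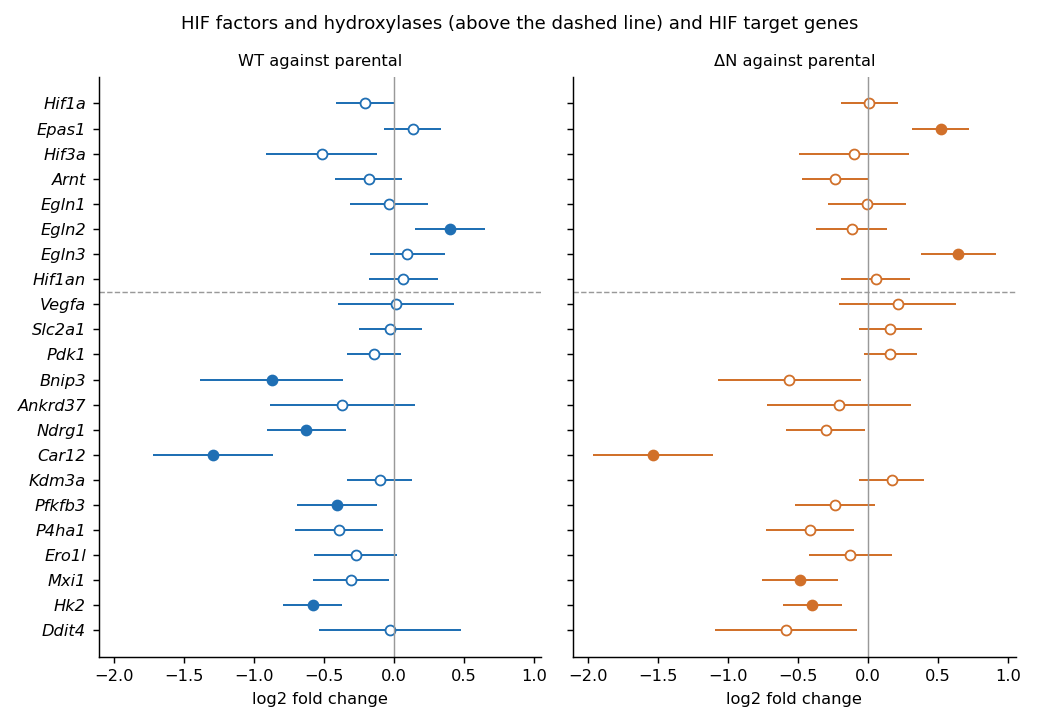
Log2 fold changes with 95% confidence intervals from limma of 8 HIF subunits and hydroxylases and, under the dashed line, 14 HIF target genes (*Ero1l* is *Ero1a*), filled where the adjusted p was under 0.05. All filled target genes lie left of 0, and *Car12* lies farthest to the left in both lines.

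The genes whose pattern was most like that of *Cul2* over the 6 libraries, among 8560 genes with a mean of at least 10 CPM, were *Azin1* (Pearson r 0.998 on log2(CPM + 1)), *Nmd3* (0.995), *Orc5* (0.994), *Rab11a* (0.991) and *Trmt6* (0.990). In each the first parental library was highest and the second ΔN library next, as for *Cul2*, so that the likeness follows the spread between dishes of one line. *Azin1* for instance had 113.5 and 78.8, 85.9 and 86.2, and 90.7 and 105.6 CPM. Of the members, *Fem1c* came closest at 0.925, ahead of *Klhdc2* at 0.783, *Rbx1* at 0.648, *Vhl* at 0.594 and *Appbp2* at 0.591, and *Klhdc3* was lowest at -0.310. The 2 libraries of a line are not independent of each other in these values, and no p is given.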

How the data were processed

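Polyadenylated RNA from 2 dishes of each of 3 lines had been sequenced on a NovaSeq as single-end reads with a TruSeq kit that does not mark strand. The authors removed ribosomal sequence (SortMeRNA), trimmed (Trimmomatic), aligned to mm10 (STAR), computed exon coverage in an in-house pipeline and deposited the result as RPKM (reads per kilobase, scaled to depth). The methods name 3 replicates, whereas 2 libraries per line were in the table used here. Bowtie2 2.3.4.3 and Subread 1.4.6-p4 also stand in the submitters' processing notes. The authors' own comparison tables, which hold DESeq2 fold changes and p-values, and the 6 ChIP samples were not used here.

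Of 50978 rows, 176 were dropped for names that occur again or had become dates, 2796 for being absent from GENCODE vM21 and 66 for matching more than 1 of its genes. The length in the RPKM values was the gene span, introns included: with it, 98.1% to 98.4% of values up to 20 reads per library came out within 0.1 of whole reads, against 18.4% to 20.7% with exon length. CPM was therefore RPKM times span, divided by one constant for all libraries, and levels of different genes were compared as CPM per kilobase of exon. Intervals and counts of reads cover no error beyond the 2 dishes, and reads without molecular identifiers are not independent molecules.

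The tests used limma 3.58.1 (R 4.3.3) on log2(CPM + 1), keeping genes that exceeded 1 CPM in 2 or more libraries. A trend of variance on mean was fitted, all 3 lines shared one fit, and p-values were adjusted over all tested genes. The scripts were tested on simulated data. Tables and figures used Python 3.11.15, pandas 2.3.3, numpy 2.4.6, scipy 1.17.1 and matplotlib 3.10.9. Alternatives were no filter, a mean of 10 CPM, pseudocounts of 5 and 0.1, median-ratio scaling, a replicate block, voom on the recovered reads, only the compared lines, an unadjusted p under 0.05 with an absolute log2 fold change above 0.58, and leaving out each library. Centring of each chromosome and the block with crossed numbers were added after seeing the data.

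The members and lists were chosen with earlier results of these data known. Named were the 10 members, *Pramel7*, the called gene of each list with the largest rise and the largest fall against parental ESCs, the 5 genes most like *Cul2* and the 3 tested genes nearest to *Vhl* on each side with *Gt(ROSA)26Sor*. *Elob*, *Eloc*, *Dcun1d4*, *Klhdc10*, *Fem1a*, *Zer1*, *Bex2*, *Epas1*, *Hif1a*, *Egln1*, the HIF targets other than *Car12*, and the genes that overlap a member were named after their values were seen.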

Additional observations from a re-analysis of the deposited data

Results flagged for a closer look

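*Vhl* differed directly between ESC + H/F-PRAMEL7WT and ESC + H/F-PRAMEL7ΔN, by -0.67 on the log2 scale (adjusted p = 0.00547 from limma). The same contrast called 14 further genes among those with the largest rise or fall of each list, *Pramel7* left out. These genes had been picked for calls against parental ESCs in the same libraries, so that their number is no separate result. Over all tested genes 20.4% were called in this contrast. *Klhdc10* (-0.55), *Epas1* (-0.38) and *Pdk1* (-0.30), named after their values were seen, were called in it too. Of genes that work with the ligase, *Cdc34* (0.54), *Egln2* (0.52) and *Ube2m* (0.31) were higher in ESC + H/F-PRAMEL7WT, and *Cops7a* (-0.62), *Egln3* (-0.55), *Cul1* (-0.52) and *Uba3* (-0.36) were higher in ESC + H/F-PRAMEL7ΔN. *Cops7a*, *Cul1*, *Uba3* and *Vhl* lie on chromosome 6, where the median over 603 genes was -0.39 in this contrast, and *Cops7a*, *Cul1* and *Vhl* were not called in it once chromosomes were centred. *Uba3* lies in the stretch from 80 to 100 Mb, where the median in this contrast was 0.02. Of the cell type markers, *Otx2* (1.43), *Dnmt3b* (1.17) and *Tfap2c* (1.12) were higher in ESC + H/F-PRAMEL7WT, and *Krt18* (-1.12), *Pdgfrb* (-0.97), *Klf4* (-0.90) and *Eomes* (-0.82) were higher in ESC + H/F-PRAMEL7ΔN.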

How the results depend on the processing

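Of 477 values of the members under the alternatives, 417 kept their direction and their side of the threshold, 22 lost a call, 22 gained one and 16 changed sign, 13 of these when a library was left out. The count of members called in ESC + H/F-PRAMEL7WT against parental ESCs was 2, and 1 with chromosomes centred, 0 under the rule with the fold change limit, and 0 to 5 without one library. In ESC + H/F-PRAMEL7ΔN it was 2, and 1 without a filter, with a mean above 10 CPM, with median-ratio scaling, with the replicate block and with only the compared lines, 0 with chromosomes centred and under the rule with the fold change limit, and 0 to 4 without one library. Between the derived lines it was 1, and 4 with only the compared lines, 0 with chromosomes centred, and 0 to 4 without one library. Where a library was left out, the other library of its line was assumed to vary like the other lines. Over all tested genes, too, fewer were called against parental ESCs without a library of the derived line concerned, and more without a parental one. A call lost or gained in these fits is therefore not particular to the members.

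Signs turned with chromosomes centred for *Vhl* in ESC + H/F-PRAMEL7WT (0.12), *Appbp2* in ESC + H/F-PRAMEL7ΔN (0.0022) and *Uba3* between the derived lines (0.0522), whose own stretch of chromosome 6 differs from the median of the chromosome, and with median-ratio scaling for *Klhdc3* in ESC + H/F-PRAMEL7ΔN (0.0302). Without one library, values in ESC + H/F-PRAMEL7WT ranged from -0.34 to 0.11 for *Cul2*, -0.0554 to 0.27 for *Rbx1*, -0.27 to 0.0374 for *Vhl* and -0.58 to 0.17 for *Lrr1*. In ESC + H/F-PRAMEL7ΔN they ranged from -0.18 to 0.27 for *Cul2*, -0.22 to 0.53 for *Lrr1*, -0.0115 to 0.15 for *Fem1b*, -0.10 to 0.30 for *Fem1c*, -0.0875 to 0.22 for *Klhdc2* and -0.14 to 0.0503 for *Klhdc3*. Between the derived lines *Rbx1* ranged from -0.18 to 0.0063. The cause was not tested.

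The replicate numbers did not pair the samples: deviations of libraries with the same number correlated at 0.21, -0.25 and -0.10 over genes. With the replicate block *Zyg11b* lost its call in ESC + H/F-PRAMEL7ΔN (adjusted p = 0.0645), and calls over all genes went from 3234 to 2729 in ESC + H/F-PRAMEL7WT and from 2566 to 2112 in ESC + H/F-PRAMEL7ΔN. With the ΔN numbers crossed, chosen after seeing the data, 2, 3 and 3 members were called in the 3 comparisons. The low *Lrr1* was not tested under the filter of 10 CPM.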
